A study of Mus musculus with 30 samples.

Results

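The question addressed here was whether the kidney's transcriptional response to a high-fat diet (HFD) differed between mice that lacked the epidermal growth factor receptor (EGFR) in vascular smooth muscle cells (KO) and wild-type mice (WT). The quantity measured was the diet by genotype interaction, that is, the log2 change from standard-fat diet (SFD) to HFD in KO kidneys minus the same change in WT kidneys. A positive interaction therefore means that the change on HFD was more positive in KO than in WT. All 16 kidneys of the series were used, out of 30 samples in all, the rest being aortae, and the contrast was computed for every gene that passed the count filter.

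RNA of kidney tissue from single mice was sequenced in 4 groups of 4 animals: WT-SFD, WT-HFD, KO-SFD and KO-HFD. Which part of the kidney was taken for RNA is not given in the sources used here. The animals were male and their background is labelled C57Bl6J. KO mice carried floxed Egfr alleles together with a Cre recombinase that tamoxifen activates and that is driven by the smooth muscle myosin heavy chain promoter (SMMHC, Myh11). The WT mice had the same Cre but no loxP sites. Every animal, controls included, was given 1 mg tamoxifen per day on 5 days, was 6 weeks old when the diets began 7 days later, and stayed on its diet for 18 weeks. Deletion was thus directed to smooth muscle, a small part of a kidney, and fewer cells of a type cannot be told apart from less RNA per cell in such tissue.

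EGFR is a receptor tyrosine kinase that signals through RAS and ERK, and ERK activity induces its own brakes, among them the dual-specificity phosphatases and the EGFR inhibitor encoded by Errfi1. The kidney is made largely of tubules, whose proximal segment recovers sugar, amino acids and ions and secretes organic anions, while the distal segments adjust sodium, calcium and acid. A high-fat diet loads these cells with lipid and is known for tubular, inflammatory and matrix changes in the kidney.

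The libraries held between 16354880 and 28331314 counted fragments. Of 41128 genes listed, 23798 had a count and 15034 passed the filter on low counts. Genes of chromosomes 9, X and Y and of the mitochondrial genome had no counts in any kidney and were not analysed here. Kidney segment markers were abundant in all 16 kidneys. Slc34a1, the phosphate transporter of the proximal tubule, ranged from 5895 to 10800 CPM (counts relative to the library total, scaled with edgeR's TMM factors), Umod of the thick ascending limb from 2543 to 5688, and Myh11, the smooth muscle gene whose promoter drives the Cre, from 13.6 to 26 CPM. Egfr itself was at 50.4 ± 8.13 CPM in WT-SFD, 45.9 ± 8.30 in WT-HFD, 53.6 ± 5.77 in KO-SFD and 43.1 ± 2.08 in KO-HFD (mean ± SD, n = 4). The KO-HFD kidneys (40.5 to 45.5 CPM) were all below the KO-SFD kidneys (46.7 to 60.8 CPM). The genotypes overlapped on each diet. Egfr RNA of the kidney tissue therefore does not show the deletion.

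Some kidneys stood apart from the rest of their group. Slc14a2, a urea transporter of the inner medulla, was at 2.91 CPM in KO-HFD-1520 and 16.4 CPM in WT-SFD-1695, against 29.8 to 154 CPM in the other kidneys. KO-SFD-1318 and KO-SFD-1319 had high levels of amino acid stress genes and of the clock-controlled genes Dbp and Ciart. The immediate early genes Egr1 and Fos were high in WT-SFD-1695, WT-HFD-1641 and KO-HFD-1558. Some of the values below are therefore also given without the first 4 of these kidneys, taken as the pairs named. The pairs were chosen for these levels, so for the same genes a shift without them follows from the choice. The mice are named by group and the number in their label, which ran from KO-SFD-1303 to KO-SFD-1451 and from WT-HFD-1535 to WT-HFD-1642, so these groups do not share a number range. The methods of the study describe random allocation to groups with placeholder numbers and blinding of the genotype by numbering, and whether the numbers in the labels are those numbers is not stated.

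No gene passed the interaction test. With edgeR's quasi-likelihood test across 15034 genes, 0 genes had a Benjamini-Hochberg adjusted p under 0.001 and 0 had one under 0.05 (0% for both), and the smallest adjusted p was 1.00. At an unadjusted p under 0.05 there were 486 genes, 3.23% of those tested, 247 with an interaction above 0 (1.64%) and 239 below 0 (1.59%). limma with voom also gave 0 genes at an adjusted p under 0.05 and 475 at the unadjusted limit, whereas DESeq2 gave 1 gene, Ccl28, and 532. The precision behind these counts differed between genes. The standard error of the interaction had a median of 0.24 log2 units, with its 5th and 95th percentiles at 0.12 and 0.73. For 71.8% of the genes the 95% interval lay within 1 log2 unit of 0, so for those genes a larger difference between the diet responses lies outside the interval, and for the others it does not. Leaving out 1 mouse moved the interaction of 69 of 165 named genes toward or past 0 by more than 1.5 times, among them 5 at the unadjusted limit, Slc13a1, Fabp1, Fabp3, Vdr and Ddit3. Because no gene passed, the genes named below are described by their values, and none is said to respond differently by genotype. Counts at the unadjusted limit in any list below stand against the 3.23% of all genes.

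The responses to diet themselves are the parts of which the interaction is made. In WT kidneys 137 genes (0.911%) passed at an adjusted p under 0.05 for HFD against SFD, 117 higher (0.778%) and 20 lower (0.133%), and in KO kidneys 346 genes (2.30%), 230 higher (1.53%) and 116 lower (0.772%) by edgeR. Of these, 104 were called in both genotypes, all in the same direction, which is 75.9% of the WT calls and 30.1% of the KO calls. Across all genes tested the diet changes of the genotypes, which share no mice, had a Pearson correlation of 0.600 and a Spearman correlation of 0.464, as a description across genes that are not independent replicates. Some of the KO calls were lost when kidneys were left out. Of 173 genes chosen for description, 38 were called for diet in KO, all 38 kept their direction without either pair of kidneys that stood apart, and 26 kept the call without WT-SFD-1695 and KO-HFD-1520 and 16 without KO-SFD-1318 and KO-SFD-1319. Named genes whose KO call was lost without the second pair were Ccl28, Errfi1, Slc13a1, Slc12a3, Pvalb, Fabp1, Lep, Sqle, Adra1a, Krt7, Smap2, Pde6a, Gstm7, Kcnn1, Dlgap3, Gltpd2, Capn11, Cyp2a4, Cyp2a5, C430014B12Rik, Trib3 and Asns. Adra1a, Sqle, Krt7, Smap2, Pde6a, Gltpd2, Cyp2a4, Cyp2a5, Trib3, Asns, Bhlhe40 and Col5a2 lost it without the first. The second pair is 2 of the 4 KO-SFD kidneys, so a call can be lost without it though the estimate stays. The KO estimate went from 0.71 to 0.72 log2 units for Slc12a3 and from 1.57 to 1.64 for Pvalb. It shrank from -2.67 to -1.07 for Trib3 and from -2.20 to -0.81 for Asns. KO kidneys differed from WT kidneys in 2 genes on SFD (0.0133%) and in 1 gene on HFD (0.00665%) at an adjusted p under 0.05.

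**Figure D1:**
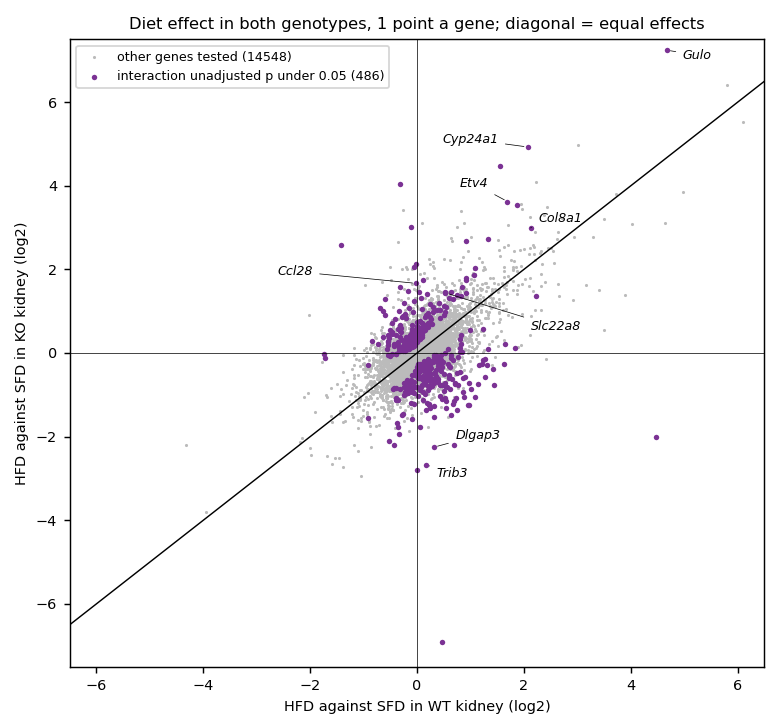
Change from SFD to HFD in WT kidneys (x axis, log2) and in KO kidneys (y axis, log2), 1 point for each of 15034 genes, with the 486 genes at an unadjusted interaction p under 0.05 in purple and the line of equal changes drawn. The cloud follows the diagonal, and Cyp24a1, Etv4, Gulo, Ccl28 and Slc22a8 lie above it while Trib3 and Dlgap3 lie below it.

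For most of the 486 genes at the unadjusted limit, KO-SFD was the group that lay apart. Its mean was the group mean farthest from the average of the other 3 in 296 of the 486 genes (60.9%), compared with 91 genes (18.7%) for WT-SFD, 78 (16%) for KO-HFD and 21 (4.32%) for WT-HFD. Among all genes tested KO-SFD was likewise the farthest group, in 44.0%. An unadjusted p under 0.05 for KO against WT was found in 335 of the 486 on SFD and in 61 on HFD, against 8.37% and 1.65% of all genes tested. The diet estimates of the genotypes had opposite signs in 336 of them (69.1%, against 34.3% of all genes tested), and the KO estimate was the larger in size in 372 (76.5%, against 62.4%). The interaction that chose these genes is the difference of the same contrasts, which favours such shares, so nothing is read from them. The part of the mouse numbers in this was not tested.

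To look at diet-responsive genes chosen by another combination of the group means, the diet change was averaged over the genotypes, a contrast added after the interaction had given no call. It passed at an adjusted p under 0.05 in 674 genes (4.48%), 434 higher and 240 lower on HFD. The change was the larger one in KO for 478 of them (70.9%), against 62.4% of all genes tested. Their median change in the direction of the average was 0.58 log2 units in WT and 0.74 in KO, and the median interaction in that direction was 0.13, against 0.06 over all genes. A single mouse moved the share between 60.5% (without WT-SFD-1694) and 78.5% (without KO-HFD-1437), and it was 57.8% without WT-SFD-1695 and KO-HFD-1520, the kidneys with the lowest Slc14a2 levels.

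A diet call in only 1 genotype did not come with a called interaction. Of the genes called for diet in exactly 1 genotype, 33 were called in WT alone and 242 in KO alone. The interaction passed at an adjusted p under 0.05 in 0 of these 275 genes by edgeR (1 by DESeq2), and it had an unadjusted p under 0.05 in 9 and 99 of them (27.3% and 40.9%, against 3.23% of all genes). A call in 1 genotype alone favours a small interaction p by selection, so nothing is read from these shares. The change had the same direction in both genotypes in 265 of the 275, and 174 had an unadjusted p under 0.05 in the other genotype too, a limit that 7.90% of all genes met in WT and 15.8% in KO. The genes called in KO alone had a median absolute change of 0.86 log2 units in KO and 0.39 in WT, and those called in WT alone 0.91 in WT and 0.50 in KO.

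Among the genes with the smallest diet p in each of these sets, the adjusted p in the other genotype ran from 0.0573 (Cryga) to 0.312 (Slc22a8) for those named here. Spns2, a transporter of sphingosine-1-phosphate, rose by 0.81 ± 0.12 log2 units (SE) in WT (edgeR adjusted p = 0.00140) and its estimate in KO was 0.43 (edgeR adjusted p = 0.0691). Others called in WT alone were Shisa7, an auxiliary protein of neurotransmitter receptors, C1ra of the complement system and the cytochrome P450 Cyp2d22, with interactions from -0.65 (Shisa7) to -0.33 (Cyp2d22). Without WT-SFD-1695 and KO-HFD-1520 the WT call of Cyp2d22 was lost (edgeR adjusted p = 0.0578, from 0.0125). Among the genes called in KO alone, Etv5, an ETS transcription factor, rose by 1.58 ± 0.20 log2 units in KO (edgeR adjusted p = 0.000442) and its estimate in WT was 0.85 (edgeR adjusted p = 0.0590). Slc22a8, Enpp6 (a choline-releasing phosphodiesterase), Cryga (a crystallin) and Dab2 (an endocytic adaptor of the proximal tubule) completed that set. Their interactions ran from 0.40 for Dab2 to 1.36 for Cryga, and Cryga rests on few reads, 6 counts in all KO-SFD kidneys and 53 in all KO-HFD kidneys.

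**Figure D2:**
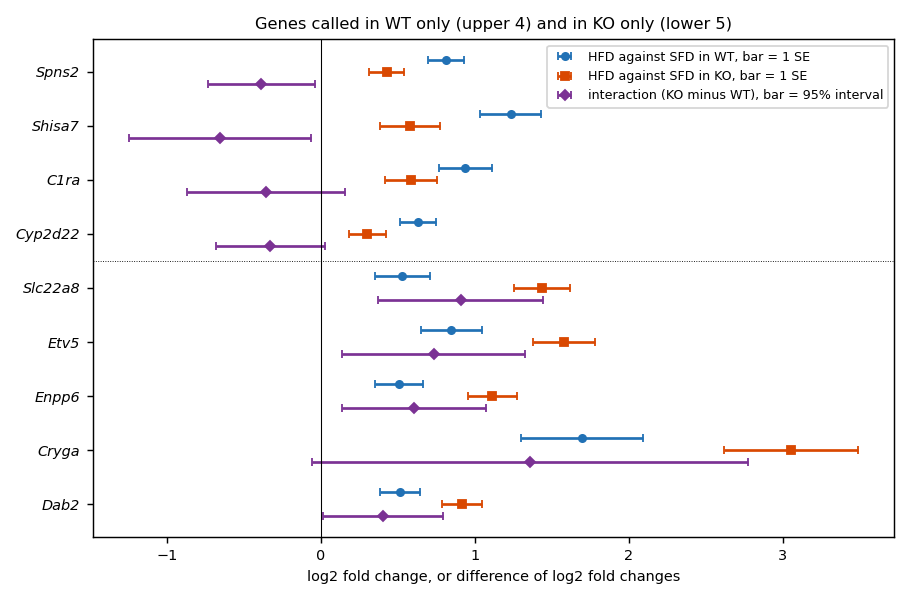
Change from SFD to HFD in WT (blue circles) and KO (orange squares) with 1 SE, and the interaction (purple diamonds) with its 95% interval, all in log2 units, for 4 genes called in WT alone (above the dotted line) and 5 called in KO alone (below it), among those with the smallest diet p. All diet estimates lie above 0, and the intervals of C1ra, Cyp2d22 and Cryga reach across 0.

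The smallest interaction p belonged to Ccl28, a mucosal chemokine, on chromosome 13 (mm10, chr13:119623819-119654359). Its level was 17.6, 18.0, 21.4 and 19.4 CPM in the WT-SFD kidneys and 14.8, 23.8, 23.9 and 12.9 CPM in the WT-HFD kidneys. It was 8.78, 7.22, 8.38 and 15.7 CPM in KO-SFD and 23.9, 27.4, 32.6 and 43.1 CPM in KO-HFD. Every KO-SFD kidney was thus below every WT-SFD kidney, the lowest KO-HFD kidney was level with the highest WT-HFD kidneys, and the WT groups overlapped. The interaction was 1.69 ± 0.35 log2 units (SE; 95% interval 0.94 to 2.43; unadjusted p = 0.000180, edgeR adjusted p = 1.00). DESeq2 gave 1.68 with an adjusted p of 0.0362, the only call by any tool, and the estimate ran from 1.4 to 1.99 over 24 alternative settings, with an adjusted p under 0.05 in that 1 setting alone.

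Etv4, an ETS transcription factor induced downstream of ERK (chr11:101769742-101785371), changed with diet in both genotypes. It was at 0.705, 2.14, 0.925 and 1.70 CPM in WT-SFD and 4.12, 5.97, 3.41 and 3.97 CPM in WT-HFD. In KO it was at 0.482, 0.377, 0.869 and 0.601 CPM on SFD and at 5.04, 7.61, 10.6 and 5.83 CPM on HFD. The HFD kidneys were above the SFD kidneys in both genotypes, by 1.69 ± 0.33 log2 units in WT (edgeR adjusted p = 0.0179) and by 3.62 ± 0.37 in KO (edgeR adjusted p = 0.000060). The interaction was 1.93 ± 0.49 (95% interval 0.89 to 2.97, unadjusted p = 0.00117). Its relative Etv5 went from 19.5 ± 4.25 to 35 ± 3.94 CPM in WT and from 14.1 ± 2.33 to 42.3 ± 13.7 CPM in KO (mean ± SD, n = 4), an interaction of 0.73 ± 0.28 (unadjusted p = 0.0188).

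Some brakes of the EGFR and ERK pathway had small unadjusted p values. Of 18 tested genes that encode EGFR ligands, their sheddases and feedback inhibitors, 12 had an interaction above 0 and 6 below, and 3 had an unadjusted interaction p under 0.05, all above 0 (16.7%, against 3.23% of all genes), and none passed the adjusted limit. These were Dusp4 (0.53 ± 0.20), Errfi1 (0.64 ± 0.28) and Dusp6 (0.46 ± 0.21). Without KO-SFD-1318 and KO-SFD-1319 the estimates were 0.33 for Dusp4, 0.40 for Errfi1 and 0.33 for Dusp6. Without WT-SFD-1695 and KO-HFD-1520 they were 0.46, 0.36 and 0.40. Errfi1, which encodes an inhibitor that binds the EGFR kinase domain, was at 341, 235, 242 and 407 CPM in WT-SFD and 471, 546, 530 and 392 CPM in WT-HFD. It was at 258, 183, 228 and 333 CPM in KO-SFD and 560, 544, 775 and 592 CPM in KO-HFD, a rise of 1.30 ± 0.20 log2 units in KO (edgeR adjusted p = 0.00148). Dusp6, the cytoplasmic ERK phosphatase, rose from 31.4 ± 5.82 to 62.4 ± 7.09 CPM in KO (edgeR adjusted p = 0.00130) and stood at 42.3 ± 7.35 and 61.0 ± 7.91 CPM in WT. On HFD the genotypes overlapped for Dusp6 and Errfi1, and the KO-SFD kidneys were on average the lowest for all 3 genes. Spred2, another inhibitor of the pathway, followed with 0.38 ± 0.25 (unadjusted p = 0.138). Of 24 listed, 3 had no counts and 3 were under the filter, and such members of any list are in no count or median given here. The median of the 18 genes was 0.12, against 0.01 for all genes, and it was -0.02 without KO-SFD-1318 and KO-SFD-1319.

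The 4 receptors of the EGFR family gave no such estimates. The interaction was -0.18 ± 0.19 log2 units for Egfr, -0.05 ± 0.13 for Erbb2, 0.17 ± 0.18 for Erbb3 and -0.40 ± 0.43 for Erbb4, with unadjusted p from 0.354 to 0.703. The 95% interval of Egfr ran from -0.57 to 0.22. Of 22 immediate early and SRF-responsive genes, 0 had an unadjusted p under 0.05 (median 0.05). Egr1 (1.35 ± 1.21), Fos (1.35 ± 1.22), Egr2 (0.79 ± 0.76) and Srf (0.19 ± 0.15) had the smallest p. The large errors of Egr1 and Fos came with single kidneys far above their groups, and without WT-SFD-1695 the estimates were -0.24 for Egr1 and -0.29 for Fos. Egr2 was at 0.17 without KO-HFD-1504, and Erbb4 at -0.13 without WT-HFD-1535.

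**Figure D3:**
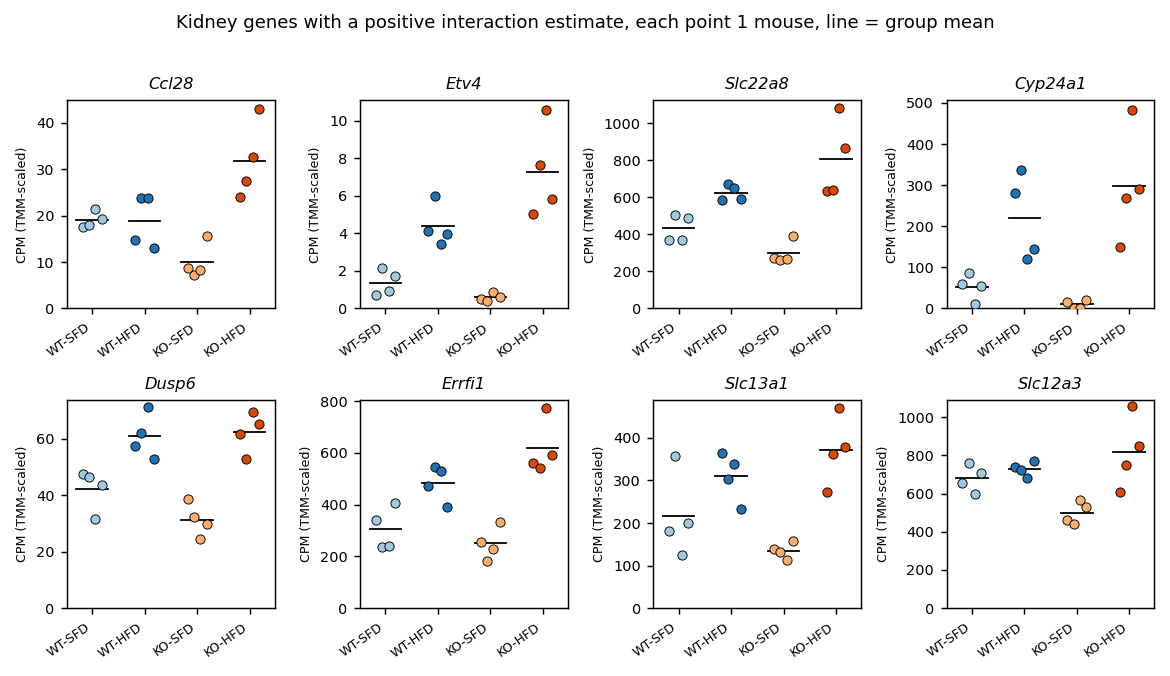
Level in every kidney (CPM scaled with TMM factors, y axes start at 0) of 8 genes with an interaction above 0, by group, 1 point per mouse and a line at the group mean. KO-SFD has the lowest group mean and KO-HFD the highest in all 8 panels. The HFD groups overlap in every panel except Ccl28, where the lowest KO-HFD kidney is level with the highest WT-HFD kidneys.

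Most transporters of the proximal tubule had estimates above 0. Of 51 tested, 38 had an interaction above 0 and 13 below, with a median of 0.20 against 0.01 over all genes. An unadjusted p under 0.05 was found in 3 of them (5.88%, against 3.23% of all genes), namely Slc22a8, Slc13a1 and Slc7a8. HFD against SFD was called, always higher, in 3 of these transporters in WT and 10 in KO, against 0.778% and 1.53% of all genes. The median stayed above 0 in all 24 alternative settings and was lowest, 0.08, without WT-SFD-1695 and KO-HFD-1520. In those kidneys the summed level of the listed transporters was 33520 and 34460 CPM, the highest in the series, against 23720 to 30450 CPM elsewhere, and the part of tissue sampling in this was not tested.

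Slc22a8, the organic anion transporter OAT3 of the basolateral membrane (chr19:8591254-8611835), was at 370, 503, 370 and 491 CPM in WT-SFD and 588, 673, 651 and 589 CPM in WT-HFD. In KO it was at 275, 259, 265 and 391 CPM on SFD and 636, 641, 1082 and 864 CPM on HFD. The SFD and HFD kidneys did not overlap in either genotype, and 3 of 4 KO-SFD kidneys were below all WT-SFD kidneys. It rose by 1.44 ± 0.18 log2 units in KO (edgeR adjusted p = 0.000433), the estimate in WT was 0.53 ± 0.18 (edgeR adjusted p = 0.312), and the interaction was 0.91 ± 0.25 (95% interval 0.37 to 1.44, unadjusted p = 0.00232). Slc13a1, the sulphate transporter, went from 216 ± 99.8 to 310 ± 56.8 CPM in WT and from 135 ± 18.2 to 371 ± 81.1 CPM in KO (interaction 0.93 ± 0.35). WT-SFD-1446 was at 357 CPM of Slc13a1, against 124 to 199 CPM in the rest of its group, and without it the interaction was 0.57. Slc7a8, a basolateral exchanger of neutral amino acids, rose in both genotypes. In WT it went from 102 ± 12.3 to 179 ± 36.0 CPM (edgeR adjusted p = 0.0288, and 0.0992 without WT-SFD-1695 and KO-HFD-1520). In KO it went from 72.5 ± 11.5 to 185 ± 39.4 CPM (edgeR adjusted p = 0.000462). Slc26a1, an anion exchanger, came next by p (0.43 ± 0.21).

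The promoter windows of the leading chemokine and transporter are shown because both genes had low values in KO-SFD and high values in KO-HFD. Each is the 250 bases before the RefSeq start in GRCm38.p6, 5′ to 3′ on the gene's strand (chr13:119623569-119623818 on the + strand for Ccl28 and chr19:8592932-8593181 on the + strand for Slc22a8). Capitals mark GTTAAT, the core of the sequence bound by HNF1 factors, searched on both strands, which is present in 6.43% of 32851 such windows.
Ccl28: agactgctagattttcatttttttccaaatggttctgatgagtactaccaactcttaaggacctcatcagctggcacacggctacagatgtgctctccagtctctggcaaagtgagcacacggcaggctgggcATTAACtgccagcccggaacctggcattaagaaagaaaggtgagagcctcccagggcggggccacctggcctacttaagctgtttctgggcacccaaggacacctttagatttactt
Slc22a8: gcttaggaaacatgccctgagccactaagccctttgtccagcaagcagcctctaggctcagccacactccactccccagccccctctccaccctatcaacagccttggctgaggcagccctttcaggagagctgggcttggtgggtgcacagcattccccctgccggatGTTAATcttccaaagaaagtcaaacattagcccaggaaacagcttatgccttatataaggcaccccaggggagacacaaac
Slc22a6, the neighbouring organic anion transporter OAT1, also has the motif and Slc7a8 does not. Slc22a6 had an interaction of 0.47 ± 0.28 (unadjusted p = 0.120). The match describes the letters only.

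Distal transporters and intercalated cell genes gave several of the smaller p values, again above 0. Among 29 genes of the loop of Henle and distal sodium transport, 3 had an unadjusted p under 0.05, all above 0 (10.3%, against 3.23% of all genes), and the median was 0.08 (0.02 without KO-HFD-1504). Slc12a3, the thiazide-sensitive sodium chloride cotransporter, was at 654, 760, 599 and 709 CPM in WT-SFD and 737, 722, 680 and 772 CPM in WT-HFD. It was at 464, 443, 564 and 531 CPM in KO-SFD and 608, 750, 1058 and 850 CPM in KO-HFD. All KO-SFD kidneys were below all other kidneys, and Slc12a3 rose by 0.71 ± 0.14 log2 units on HFD in KO (edgeR adjusted p = 0.0127) with an interaction of 0.61 ± 0.20 (unadjusted p = 0.00796). Trpv5, a calcium channel (0.93 ± 0.34), and Scnn1g, a subunit of the epithelial sodium channel (0.35 ± 0.14), were the others, and Pvalb, which marks the distal convoluted tubule, had 0.69 ± 0.35 (unadjusted p = 0.0681), and 0.44 without WT-SFD-1446. Of 20 collecting duct and intercalated cell genes, 2 were at the unadjusted limit (10.0%, against 3.23%, with a median of 0.12), the proton pump subunit Atp6v0d2 (0.50 ± 0.18) and the anion exchanger Slc4a9 (0.61 ± 0.25), followed by Atp6v1b1 (0.39 ± 0.19) and the keratin gene Krt7 (-0.32 ± 0.18). The median of the collecting duct genes was -0.025 without WT-SFD-1446. The 25 tubule transcription factors had a median of 0.09, with Rxra at 0.26 ± 0.12 (unadjusted p = 0.0488) as the single member at the limit, ahead of Esrrb (-0.50 ± 0.28), Irx2 (-0.46 ± 0.25) and Tfcp2l1 (0.43 ± 0.25).

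Genes of vitamin metabolism had large estimates of both signs. Of 37 genes of amino acid and vitamin metabolism, 5 had an interaction above 0 and 2 below 0 at the unadjusted limit (18.9%, against 3.23% of all genes, with a median of 0.09, and -0.07 without WT-SFD-1695 and KO-HFD-1520). Cyp24a1, which inactivates vitamin D, was at 58.6, 86.8, 10.0 and 55.7 CPM in WT-SFD and 280, 336, 120 and 145 CPM in WT-HFD. It was at 15, 2.21, 0.818 and 21.2 CPM in KO-SFD and 150, 270, 482 and 291 CPM in KO-HFD. The diets did not overlap in either genotype, while the genotypes overlapped on both diets. The rise in KO was 4.93 ± 0.81 log2 units (edgeR adjusted p = 0.00265), the estimate in WT 2.07 ± 0.71 (edgeR adjusted p = 0.325), and the interaction 2.86 ± 1.00 with a wide 95% interval of 0.74 to 4.98. The vitamin D receptor gene Vdr had 0.55 ± 0.24 (0.33 without KO-HFD-1520) and Gatm, the first enzyme of creatine synthesis, 0.82 ± 0.36. The members below 0 were Cyp27b1, which makes the active form of vitamin D, and the cystathionine synthase gene Cbs (-0.43 ± 0.19). Cyp27b1 was at 2.72 ± 1.12 and 9.86 ± 5.70 CPM in WT and at 6.29 ± 3.83 and 6.88 ± 3.28 CPM in KO, with groups that overlapped and an interaction of -1.71 ± 0.77 (unadjusted p = 0.0402).

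Gulo, the last enzyme of vitamin C synthesis, was barely counted on SFD in either genotype. The WT-SFD kidneys held 12 counts in all, with 0 to 5 in each, and the KO-SFD kidneys 3 counts, with 0 to 2 in each. On HFD the WT kidneys held 304 counts and the KO kidneys 508, and the HFD kidneys of both genotypes were all above the SFD kidneys. The mean level on HFD was 3.76 ± 0.77 CPM in WT and 6.83 ± 3.50 CPM in KO, where KO-HFD-1520 alone reached 11.9 CPM. Gulo passed for diet in WT (edgeR adjusted p = 0.000418) and in KO (edgeR adjusted p = 0.000040). With so few counts on SFD, the fitted interaction of 2.57 ± 1.03 depends on the prior count and is not a measure of fold.

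Among the 12 leading genes of each direction, the remaining ones with an interaction above 0 were mostly of other kinds. Scube3, a secreted signalling protein, Smap2, a regulator of vesicle traffic, and Pde6a, a phosphodiesterase of rod cells, were called for diet in KO (edgeR adjusted p = 0.00111, 0.0103 and 0.0127) with estimates near 0.37, 0.05 and 0.09 in WT. Cnnm2, a magnesium transport protein of the distal tubule, had opposite diet estimates, -0.20 in WT and 0.26 in KO, with an interaction of 0.47 ± 0.14, and Plekhd1 had 0.61. The long noncoding RNA C430014B12Rik was lowest in KO-SFD, with 27 counts in 4 kidneys against 74 to 98 in the other groups. Gm10874, the pseudogene Gm9575 and the pseudogene Pisd-ps2 also belonged to the set, and reads of such copies may be shared with their parent genes. Pisd-ps2 was 1 of the 2 genes lower in KO than in WT on SFD (-1.51, edgeR adjusted p = 0.0297). The other was Camk2b, a subunit of a calmodulin-dependent kinase, at 4.79 ± 2.85 CPM in WT-SFD and 0.224 ± 0.159 CPM in KO-SFD (-4.38, edgeR adjusted p = 0.00657), which was also the gene lower in KO on HFD (-3.75, edgeR adjusted p = 0.0267). Its interaction was 0.63 ± 0.79.

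The leading genes with an interaction below 0 were mostly scarce. Gltpd2, which encodes a glycolipid transfer domain protein (chr11:70519196-70520736), was at 0.650, 0.880, 0.617 and 0.583 CPM in WT-SFD and 0.833, 0.970, 0.966 and 0.956 CPM in WT-HFD. It was at 1.16, 1.51, 1.74 and 1.20 CPM in KO-SFD and 0.651, 0.519, 0.570 and 0.855 CPM in KO-HFD. All KO-SFD kidneys were above all others, yet they held only 22 to 34 counts each. The interaction was -1.56 ± 0.35 (95% interval -2.30 to -0.82, unadjusted p = 0.000373, edgeR adjusted p = 1.00). Dlgap3, a postsynaptic scaffold gene, was lowest in KO-HFD, 0.244 ± 0.105 CPM against group means of 0.714 to 1.15 CPM elsewhere (interaction -2.57 ± 0.58). Capn11, a calpain gene known from testis, held 177 counts in the KO-SFD kidneys, 26 in WT-SFD, of which 24 were in WT-SFD-1695, 32 in WT-HFD and 1 in KO-HFD, so no fold is given.

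Gstm7 was the most abundant named gene among them. This glutathione S-transferase (chr3:107926334-107931817), whose reads may be shared with its paralogues, was at 16.4, 20.5, 15.3 and 16.2 CPM in WT-SFD and 18.4, 17.7, 16.5 and 19.9 CPM in WT-HFD. It was at 17.4, 28.8, 22.6 and 19.1 CPM in KO-SFD and 11.6, 12.8, 14.4 and 12.7 CPM in KO-HFD. The KO-HFD kidneys were below all others, and the WT groups overlapped. It fell by 0.77 ± 0.14 log2 units in KO (edgeR adjusted p = 0.00726) and its interaction was -0.86 ± 0.20. Itih1, a hyaluronan-binding serum protein gene (-0.74 ± 0.20), and Kcnn1, a potassium channel gene (-1.0 ± 0.27), fell on HFD in KO as well (edgeR adjusted p = 0.00134 and 0.0356). Cyp39a1, an oxysterol hydroxylase, rose in WT (0.64 ± 0.14, edgeR adjusted p = 0.0450) with an estimate of -0.12 in KO. Its WT call was lost without either pair of kidneys that stood apart. The edgeR adjusted p was 0.0719 without KO-SFD-1318 and KO-SFD-1319 and 0.180 without WT-SFD-1695 and KO-HFD-1520. KO-SFD-1318 and KO-SFD-1319 are not WT kidneys, and without them the WT estimate stayed at 0.64. It was 0.60 without WT-SFD-1695 and KO-HFD-1520. Atp2a1, the calcium pump of fast muscle, Bfsp1, a lens filament gene, 1700056E22Rik and the small RNA Gm22107 were all below 2 CPM in every kidney.

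Genes of the amino acid stress response gave an uneven picture. Trib3, a pseudokinase induced by the transcription factor ATF4 (chr2:152337422-152344032), was at 0.813, 1.82, 1.47 and 1.12 CPM in WT-SFD and 2.08, 0.816, 1.36 and 1.58 CPM in WT-HFD. In KO-SFD it was at 1.4, 15.8, 9.0 and 3.5 CPM, and in KO-HFD at 1.25, 1.34, 1.08 and 0.955 CPM. KO-SFD-1318 and KO-SFD-1319 were far above all others, and KO-SFD-1303 was within the WT range. The interaction was -2.84 ± 0.77 (unadjusted p = 0.00199), and -1.23 without those mice. Trib3 and Asns, the asparagine synthetase gene, passed as lower on HFD in KO (edgeR adjusted p = 0.0130 and 0.0135), and without those mice their adjusted p was 0.390 and 0.429. Asns was at 22.6 and 24.0 CPM in KO-SFD-1318 and KO-SFD-1319 and between 2.11 and 6.85 CPM in all other kidneys (interaction -1.77 ± 0.63, and -0.38 without them). Ddit3, which encodes the stress factor CHOP, was at 98.7 and 37.8 CPM in them, against 12.9 to 21.6 CPM elsewhere (-1.59 ± 0.52, and -0.49 without them). Chac1, a glutathione-degrading enzyme, was at 15.9 and 4.81 CPM, against 1.02 to 2.71 CPM (-1.82 ± 0.74, and -0.41 without them), and Atf4 itself at 144 and 121 CPM, against 63.6 to 109 CPM (-0.29 ± 0.23, and 0.07 without them).

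Of the 28 tested heat shock and ER stress genes, these 4 targets of ATF4 were the only members below 0 at the unadjusted limit, and Hsf1, the heat shock factor, was the only one above 0 (0.40 ± 0.16). Together they made up 17.9% of the list, against 3.23% of all genes. The median of the list was 0.05. The promoter windows of Asns and Chac1 are shown because these genes were high in the same kidneys. They are the 250 bases before the RefSeq start in GRCm38.p6, 5′ to 3′ on the gene's strand (chr6:7693210-7693459 on the - strand and chr2:119350992-119351241 on the + strand). Capitals mark TGATGNAA, the core of the element bound by ATF4 with a C/EBP partner, searched on both strands, which is present in 3.45% of 32851 windows.
Asns: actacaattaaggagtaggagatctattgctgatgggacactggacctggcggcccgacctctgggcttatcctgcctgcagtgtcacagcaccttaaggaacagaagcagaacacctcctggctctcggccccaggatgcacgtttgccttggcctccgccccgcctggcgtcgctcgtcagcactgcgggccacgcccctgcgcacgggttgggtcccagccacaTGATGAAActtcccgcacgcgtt
Chac1: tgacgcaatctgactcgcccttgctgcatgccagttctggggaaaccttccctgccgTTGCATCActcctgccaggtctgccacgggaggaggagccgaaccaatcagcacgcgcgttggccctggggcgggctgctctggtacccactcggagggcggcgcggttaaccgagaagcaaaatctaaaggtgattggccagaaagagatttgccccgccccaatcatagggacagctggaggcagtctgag
The windows of Trib3 and Ddit3 hold no such letters.

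Clock-controlled genes were high in the same kidneys. Dbp was at 235 and 253 CPM in KO-SFD-1318 and KO-SFD-1319, against 20.2 to 170 CPM in the others, and Ciart at 22.2 and 28.8 CPM, against 2.26 to 13.1 CPM. Of 18 clock genes, 1 had an unadjusted p under 0.05, Ciart (-1.53 ± 0.67), and the next were Dbp (-1.38 ± 0.67), Bhlhe40 (-0.30 ± 0.16) and Bhlhe41 (-0.95 ± 0.56). The median of the list, -0.32, was -0.05 without these mice, and the interactions of Ciart and Dbp were then -0.09 and -0.40. These mice were chosen partly for high Dbp and Ciart, so nothing is read from that shift. Clock time at death is not given in the sources used here, and its part in these values was not tested.

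**Figure D4:**
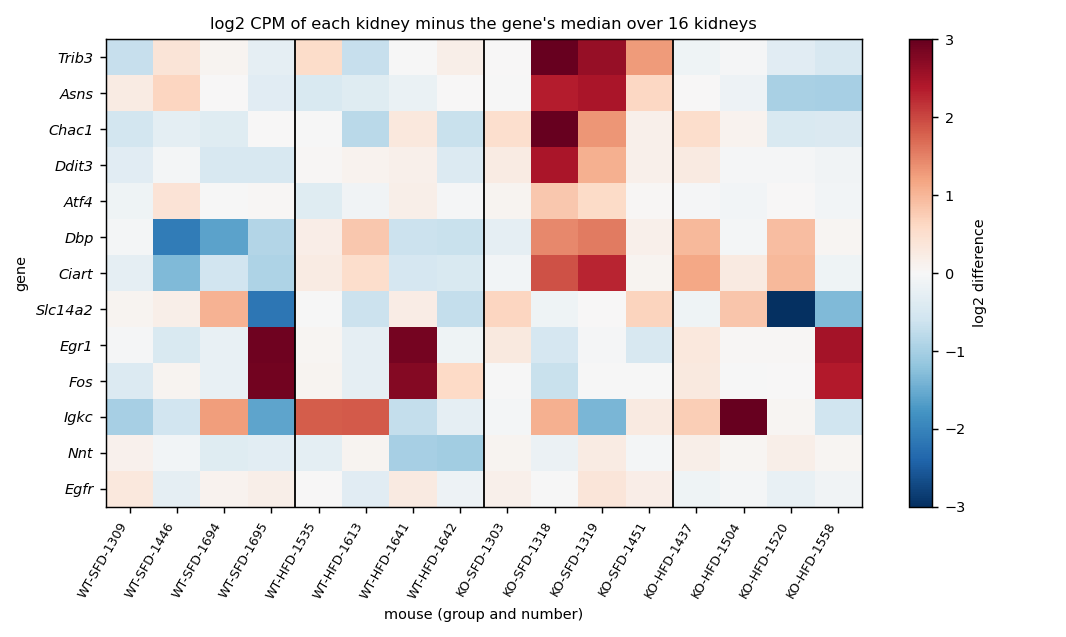
Level of 13 genes in each of 16 kidneys as the difference of log2(CPM + 0.1) from the gene's median, red above and blue below with colours capped at 3 log2 units, and vertical lines between the groups. KO-SFD-1318 and KO-SFD-1319 are high for Trib3, Asns, Chac1, Ddit3, Dbp and Ciart, KO-HFD-1520 and WT-SFD-1695 are low for Slc14a2, 3 kidneys of different groups are high for Egr1 and Fos, and Egfr is even.

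The genes listed as inflammatory, which do not include the chemokine gene Ccl28 described above, gave no interaction call by edgeR and few small p values. Of 28 tested inflammatory mediators 0 had an unadjusted p under 0.05, and the median was -0.12 (-0.07 without WT-SFD-1695 and KO-HFD-1520), with 10 genes above 0 and 18 below. The smallest p belonged to the chemokines Ccl5 (-0.98 ± 0.53) and Cxcl12 (-0.52 ± 0.29), the NF-kappaB subunit Nfkb2 (0.21 ± 0.12) and Cxcl10 (-0.71 ± 0.49). The 95% interval of Ccl5 ran from -2.10 to 0.14, and Cxcl10 was at -0.22 without KO-SFD-1451. For diet, 1 mediator and 1 leucocyte marker were called, both higher in WT, against 0.778% of all genes, and none was called in KO. These were the chemokine gene Cxcl16 (0.70, edgeR adjusted p = 0.0195, and 0.0880 in KO) and the integrin gene Itgax (0.91, edgeR adjusted p = 0.0388, and 0.0673 in KO), named after their values were seen. Of 25 leucocyte markers 1 was at the unadjusted limit, the macrophage receptor gene Csf1r (-0.38 ± 0.17), ahead of Fcgr3 (-0.62 ± 0.29), Adgre1 (-0.59 ± 0.33) and the B cell gene Ms4a1 (2.18 ± 1.24). Ms4a1 was at 7.92 CPM in KO-HFD-1504, against 0.570 to 1.84 CPM in the rest of its group, and its interaction was 0.82 without that mouse. Antigen presentation genes were below 0 in 14 of 17, with a median of -0.23 that stayed negative in all 24 alternative settings (-0.10 without WT-SFD-1695 and KO-HFD-1520), and 0 were at the unadjusted limit. H2-K1 (-0.42 ± 0.22), H2-DMa (-0.50 ± 0.27), H2-DMb1 (-0.50 ± 0.29) and H2-D1 (-0.24 ± 0.16) had the smallest p. Of the list only H2-DMb1 was called for diet, higher in WT (1.08, edgeR adjusted p = 0.0163), against 0.778% of all genes. Without WT-SFD-1695 and KO-HFD-1520 that call was lost (edgeR adjusted p = 0.0633). Of 26 interferon-stimulated genes 0 were at the limit (median 0.05), with Gbp2 (-0.93 ± 0.54), Oas1a (0.50 ± 0.33), Dhx58 (0.55 ± 0.46) and Stat2 (0.25 ± 0.22) first. Gbp2 was at 22.7 CPM in KO-SFD-1451, against 7.11 to 8.87 CPM in the rest of its group, and at -0.39 without it, and Dhx58 and Stat2 were at 0.16 and 0.07 without WT-SFD-1694.

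Injury, matrix and glomerular genes gave no interaction call by edgeR and few small p values. The 22 tubule injury and repair genes had a median of -0.11 (0.07 without WT-SFD-1695 and KO-HFD-1520), and 1 was at the limit (4.55%, against 3.23% of all genes), the cyclin gene Ccnd1 (-0.42 ± 0.19). Mki67 (1.58 ± 0.84), Anxa1 (-0.48 ± 0.27) and Vim (-0.35 ± 0.20) followed. Mki67, a proliferation gene, was at 13.3 CPM in KO-HFD-1504, against 2.26 to 2.47 CPM in the rest of its group, and its interaction was 0.45 without that mouse. Of 40 matrix and fibrosis genes, 20 lay on each side of 0 (median 0.00), and 2 were at the limit (5%, against 3.23%). Col6a1 went from 18.2 ± 1.78 to 23.2 ± 3.04 CPM in WT and from 23.5 ± 2.94 to 21.5 ± 2.56 CPM in KO (-0.49 ± 0.17). Col8a1 rose in both genotypes, by 2.12 log2 units in WT and 2.99 in KO (edgeR adjusted p = 0.000515 and 0.000040), with an interaction of 0.87 ± 0.37. Dcn (-0.50 ± 0.24) and Col5a2 (0.45 ± 0.26) came next, and Col5a2 fell on HFD in both genotypes (edgeR adjusted p = 0.00261 and 0.0450). Of 20 podocyte and glomerular genes, 14 had an interaction above 0 and 6 below, with a median of 0.13 (0.04 without KO-HFD-1558), and 2 were at the limit (10%, against 3.23%). Ptgds, the prostaglandin D synthase gene, was at 8.11 ± 3.55 and 11.1 ± 2.35 CPM in WT and at 14.5 ± 4.05 and 8.53 ± 1.85 CPM in KO (-1.20 ± 0.38), and the podocyte gene Synpo had 0.48 ± 0.22, before Wt1 (0.58 ± 0.31).

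Lipid and energy genes gave no interaction call by edgeR. In the 61 oxidative phosphorylation subunits 53 interactions were below 0 and 8 above, with a median of -0.15, but 0 had an unadjusted p under 0.05, and Ndufv2, Ndufb9, Cox7c and Ndufb10, the first by p, lay between -0.36 and 0.24. Without KO-SFD-1318 and KO-SFD-1319 the median was 0.00463, and KO-SFD-1318 had the highest summed level of these genes, 31930 CPM against 20490 to 29080 CPM. Of 49 fatty acid oxidation genes 2 were at the limit (median 0.03), Cyp4a32 (0.63 ± 0.24), 1 of a family of near-identical enzymes, and Fabp1 (1.66 ± 0.78), and Cpt1b (-0.98 ± 0.57) and Bdh1 (-0.28 ± 0.16) followed. WT-SFD-1446 was at 1.38 CPM of Fabp1, against 0.224 to 0.379 CPM in the rest of its group, and without it the interaction was 0.79. Srebf1, the regulator of fatty acid synthesis, was at 103 ± 31.8 and 70.9 ± 7.62 CPM in WT and at 68.1 ± 18.6 and 77.5 ± 3.32 CPM in KO (0.73 ± 0.29). With it, Fads2 (0.38 ± 0.16) and Fabp3 (-0.66 ± 0.30, and -0.41 without KO-SFD-1318) were at the limit among 37 genes of fatty acid synthesis and lipid droplets, of which 11 lay above 0 and 26 below (median -0.20, and 0.01 without KO-SFD-1451), and Abca1 had 0.52 ± 0.27. Of 21 cholesterol genes, 2 were at the limit (median 0.10, and 0.00 without WT-HFD-1535), among them Srebf2 (0.27 ± 0.13), followed by Sqle (-0.42 ± 0.25), which fell in KO (edgeR adjusted p = 0.0280), and Pmvk (-0.37 ± 0.25). The 28 genes of gluconeogenesis, glycolysis and fructose use had 0 at the limit (median -0.07), with Pfkl (-0.34 ± 0.18), Pck1 (0.89 ± 0.54), Slc2a5 (-0.43 ± 0.27) and Hk1 (-0.36 ± 0.23) first. Pck1 was at 0.08 without WT-SFD-1695 and KO-HFD-1520, and Slc2a5 at 0.01 without KO-SFD-1318 and KO-SFD-1319.

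Detoxification and antioxidant genes gave no interaction call by edgeR. Ccl28, called by DESeq2 as given above, is on the first of these lists, but it is a chemokine gene and not a detoxification gene. Among 36 genes listed as cytochrome P450 and conjugation enzymes, 3 were at the limit (8.33%, against 3.23% of all genes, with a median of -0.03). Of these 3 only Ccl28 lay above 0, so the count and the median include a gene that is not such an enzyme. Sult1a1 (-0.41 ± 0.18) and Cyp2a4 (-0.50 ± 0.24) lay below 0. Cyp2a5, a close paralogue of Cyp2a4, had -0.98 ± 0.51. Cyp2a5 was at 725 and 708 CPM in KO-SFD-1318 and KO-SFD-1319, against 78.1 to 234 CPM elsewhere. Without these kidneys the interaction was 0.19 for Cyp2a5 and -0.19 for Cyp2a4. Of 18 antioxidant and NRF2 target genes 0 were at the limit (median 0.06), with Gsr (0.35 ± 0.21), Txnrd1 (0.22 ± 0.15), Nfe2l2 (-0.14 ± 0.09) and Cat (0.19 ± 0.18) first.

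Genes of the cells in which Egfr was deleted showed no interaction call by edgeR. Of 12 tested smooth muscle and pericyte genes 0 were at the unadjusted limit, with a median of -0.12 (0.03 without WT-HFD-1642), and Tpm2 (-0.49 ± 0.24), Myl9 (-0.41 ± 0.22), Des (-0.29 ± 0.21) and Smtn (-0.21 ± 0.15) had the smallest p. Their summed level ran from 344 to 487 CPM over the 16 kidneys. The 11 genes of the renin-angiotensin and endothelin system had a median of 0.07 and 0 at the limit, with Enpep (0.34 ± 0.19), Agtr1a (0.27 ± 0.15), Edn1 (-0.69 ± 0.49) and Ednrb (-0.30 ± 0.24) first. The 17 endothelial genes had a median of -0.03 and 0 at the limit, with Ehd3 at 0.27 ± 0.18, Icam2 at -0.32 ± 0.27, Egfl7 at -0.23 ± 0.20 and Cldn5 at -0.33 ± 0.29. Without KO-SFD-1318 Icam2 and Egfl7 were at -0.05 and -0.06, and without WT-HFD-1613 Ehd3 and Cldn5 were at 0.16 and -0.14. Of the 32 tested genes for which the study designed PCR primers, 1 was at the limit, the alpha-adrenergic receptor gene Adra1a (0.78 ± 0.32), which rose in KO (1.19, edgeR adjusted p = 0.0103), and the median was -0.03. F3, the tissue factor gene, had -0.24 ± 0.17.

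Markers of other cells and tissues that a kidney sample can hold were read in the same way. The medulla markers had a median interaction of -0.41 over 13 genes, with Cyp4f14 at the limit (-0.79 ± 0.28) before Slc6a6 (0.33 ± 0.20) and Aqp4 (-0.66 ± 0.50), and the median was 0.09 without WT-SFD-1695 and KO-HFD-1520. The summed level of the medulla markers was 557 CPM in KO-HFD-1520 and 759 CPM in WT-SFD-1695, against 789 to 1458 CPM in the other kidneys. This pair was chosen for low Slc14a2, a gene of this list, so nothing is read from the shift of the median. Fibroblast markers had a median of -0.28 over 11 genes, which stayed negative in all 24 settings (-0.13 without WT-HFD-1613), and 0 at the limit, with Gsn (-0.34 ± 0.25), Dpt (-0.58 ± 0.48) and Pdgfra (-0.50 ± 0.49, and -0.11 without WT-HFD-1535) after Dcn. White adipocyte markers (13 genes, median -0.27) and brown adipocyte markers (9 genes, median -0.51) had 0 at the limit, and each median changed sign when 1 mouse was left out, to 0.445 without KO-SFD-1451 and to 0.51 without WT-HFD-1535. Among the adipocyte genes, Lep was called higher on HFD in KO (edgeR adjusted p = 0.00902) and not in WT (edgeR adjusted p = 0.122). KO-HFD-1520 was at 17.2 CPM of Lep and the other KO-HFD kidneys at 1.74 to 2.67 CPM. Without WT-SFD-1695 and KO-HFD-1520 Lep was called higher in both genotypes. The rise was then 3.59 log2 units in KO and 4.14 in WT (edgeR adjusted p = 0.00619 and 0.00337). Fabp4 (-0.84 ± 0.54, and -0.36 without KO-SFD-1451), Pnpla2 (-0.20 ± 0.21, and -0.07 without WT-HFD-1613), Cox7a1 (-0.37 ± 0.25, and -0.20 without KO-SFD-1318), Dio2 (-1.98 ± 1.55) and Ppargc1a (-0.17 ± 0.27) had intervals that included 0. The most abundant members, Pck1 of the white list and Ppargc1a of the brown list, are also tubule genes. The defining genes were highest in KO-SFD kidneys, Adipoq at 31.7 CPM in KO-SFD-1451 and Ucp1 at 31.7 CPM in KO-SFD-1303, and ranged down to 1.06 CPM and 0. Adipoq was next at 14.9 CPM in KO-SFD-1303, then at 12.7 and 11.5 CPM in WT-SFD-1695 and WT-SFD-1446. The summed brown adipocyte markers were at 202 and 190 CPM in KO-SFD-1451 and KO-SFD-1303, against 91.5 to 139 CPM in all other kidneys. The part of fat tissue in the KO-SFD values was not tested.

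Blood markers (10 genes, median 0.12, and -0.15 without KO-SFD-1318 and KO-SFD-1319), adrenal markers (2 genes, median -0.04), liver markers (7 genes, median 0.04) and skeletal muscle markers (4 genes, median 0.03) had no member at the limit other than Atp2a1. Among their first members by p were Slc4a1 (0.26 ± 0.34, and 0.04 without WT-SFD-1446), Hbb-bs (0.35 ± 0.48, and 0.09 without KO-HFD-1520) and S100a9 (-0.51 ± 0.84, and 0.04 without KO-SFD-1303) for blood. For adrenal they were Star (-0.46 ± 0.29) and Akr1b7 (0.39 ± 0.48, and 0.175 without WT-SFD-1446). For liver they were Ttr (0.77 ± 0.40, and 0.50 without KO-HFD-1520), Serpina1a (-0.71 ± 0.44), Apoa2 (-0.41 ± 0.31, and -0.185 without WT-HFD-1613) and Apob (-0.23 ± 0.28, and -0.09 without WT-HFD-1535). For muscle they were Mylpf (0.57 ± 0.43, and 0.38 without WT-SFD-1446) and Actn3 (-0.50 ± 0.58, and -0.14 without WT-HFD-1535). Alb, the defining liver gene, was between 4.40 and 13.1 CPM in every kidney, while Cyp2e1, the most abundant gene of the liver list, is also a tubule gene. Pvalb, the most abundant gene of the muscle list, is the distal tubule gene described above. Of the 36 lists, 10 kept the sign of their median in all 24 alternative settings.

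**Figure D5:**
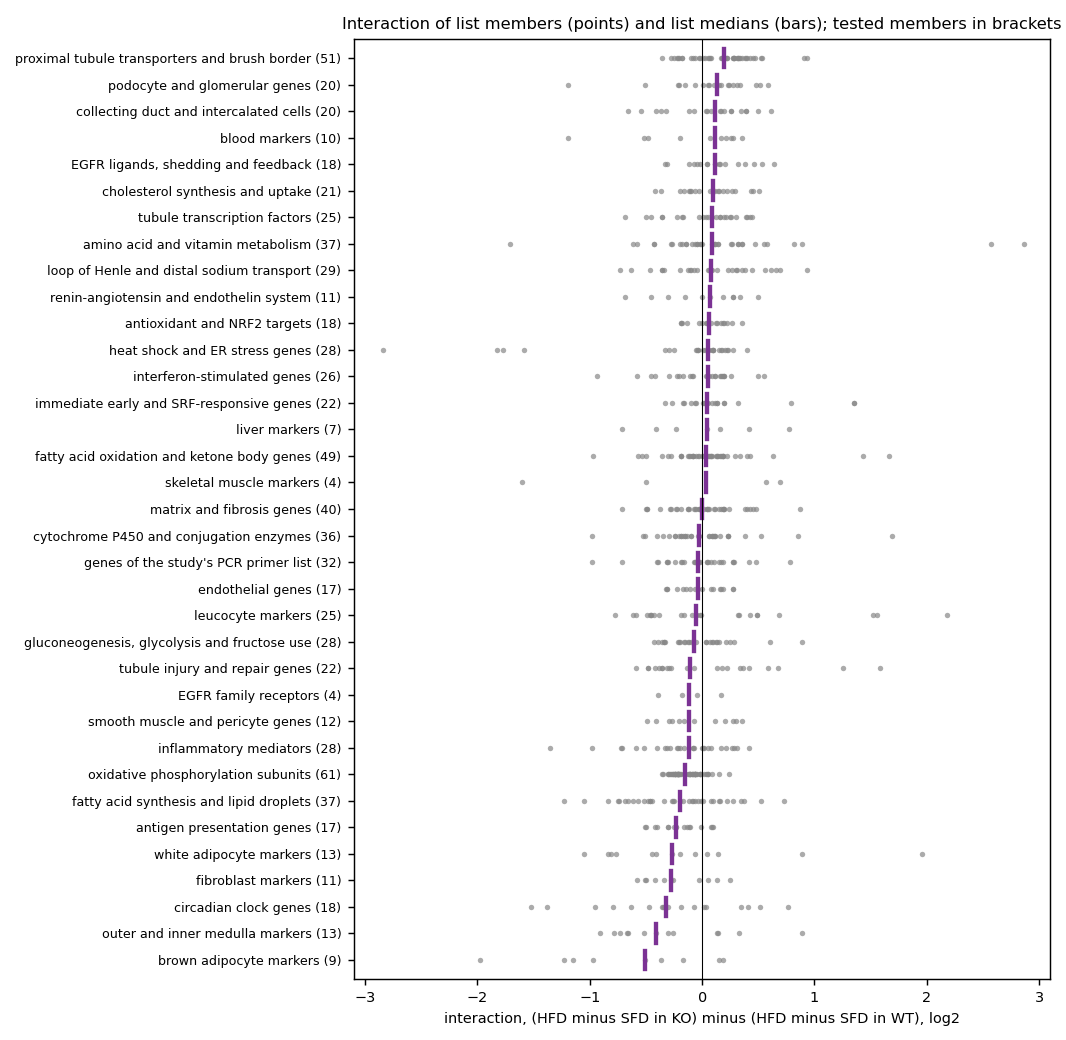
Interaction in log2 units (x axis) of every tested member (points) of the gene lists with 3 or more tested members, ordered by list median (purple bars), with the number of tested members in brackets. Medians run from -0.51 for brown adipocyte markers to 0.20 for proximal tubule transporters, and the 4 ATF4 targets lie to the left of the other heat shock and ER stress genes.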

How the data were processed

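Kidney RNA was sequenced by an external provider. The methods of the study state that the provider also trimmed the kidney reads, without naming a tool, and name cutadapt for the aortic reads. Reads were aligned to mm10 (TopHat) and counted per gene (featureCounts), and the authors deposited raw counts per gene and mouse. Whether counting used strand is not given in the sources used here, so overlapping genes cannot be told apart. The total counts per kidney set the precision of each gene. Counts were fitted with edgeR 4.0.16 (quasi-likelihood test, TMM factors, filterByExpr by group, 1 coefficient per group, R 4.3.3) and adjusted over all genes tested by the Benjamini-Hochberg method, with limits of 0.001, the one the study used, and 0.05. Standard errors and 95% intervals are those that give the test's p, which edgeR raised by its Poisson bound for 30 genes. CPM values are TMM-scaled. Gene names and positions came from GENCODE vM21 (40254 of 41128 identifiers matched), promoters from RefSeq.

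The procedure was also run on simulated data in which 200 genes were changed. The outcome is not given here, so no count above rests on it. DESeq2 1.42.0, limma 3.58.1 with voom, RLE factors, library totals without TMM, no filter, protein-coding genes only and leaving out each mouse were the alternatives. Leaving out 2 pairs of kidneys (WT-SFD-1695 with KO-HFD-1520, and KO-SFD-1318 with KO-SFD-1319) and the averaged diet contrast were added after seeing the data. The members and lists were chosen with earlier results of these data known. Named genes are the 12 with the smallest unadjusted p per direction, the first 4 by p of each list, the EGFR family, and the 5 with the smallest diet p among genes called in 1 genotype. Etv5, Chac1, Atf4, Slc22a6, Slc14a2, Camk2b, Cyp27b1, Gatm, Cbs, Adipoq, Ucp1, Alb, Nnt, Igkc, Egr1, Fos, Dbp and the segment markers were otherwise picked after their values were seen. The promoter motifs were picked after the genes were. No 2 libraries were alike within sampling noise (chi-square per gene at least 9.22 over 120 pairs). No label relates the mice of a group to litters or batches. The deposited aorta counts were not used here. Some genes that this rule names are not reported here.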

Additional observations from a re-analysis of the deposited data

Results flagged for a closer look

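Of 204 gene and group pairs examined (51 genes in 4 groups of 4 mice), 20 held a kidney far from the other 3 of its group by Dixon's criterion, which chance alone meets in about 1 of 20 pairs. All values are in CPM. Among the leading genes, Slc22a8 was at 391 in KO-SFD-1451 (next 275), Plekhd1 at 17.2 in WT-SFD-1446 (next 13.4), Pisd-ps2 at 15.7 in KO-HFD-1437 (next 9.13), Cyp39a1 at 8.77 in WT-SFD-1694 (next 6.19) and Dlgap3 at 1.48 in WT-HFD-1613 (next 0.739). Gltpd2 was low, 0.833, in WT-HFD-1535 (next 0.956). Gm22107 was at 1.08 in KO-SFD-1318 and at 0.163 in KO-HFD-1437, and 1700056E22Rik at 0.134 in WT-SFD-1695. Capn11 was at 1.08 in WT-SFD-1695, 1.48 in WT-HFD-1641 and 0.0542 in KO-HFD-1437, where the other kidneys of the group held no count.

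Slc22a6 was at 1640 in WT-SFD-1695 (next 1100), the kidney with 16.4 CPM of the inner medulla gene Slc14a2. Egr1 and Fos stood apart in the same kidneys. Egr1 was at 45.6 in WT-SFD-1695, 43.7 in WT-HFD-1641 and 34.0 in KO-HFD-1558, and Fos at 6.77, 6.08 and 4.68 in these mice, while Fos was low, 0.485, in KO-SFD-1318. The cause of these values was not tested.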

How the results depend on the processing

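Tool and filter changed the counts of calls. With DESeq2 the diet calls were 263 in WT and 695 in KO (edgeR 137 and 346), the interaction had 1 call at an adjusted p under 0.05, Ccl28 (1.68, adjusted p = 0.0362), which is also the 1 such gene among those called for diet in 1 genotype, and KO against WT on SFD had 26 calls (edgeR 2). That last count was 0 with limma and voom, 1 without TMM, 4 without the filter, 1 for protein-coding genes and 1 without either pair of kidneys. KO against WT on HFD (edgeR 1) had 0 calls with voom and 0 without either pair. Without the filter 776 genes had an unadjusted interaction p under 0.05. Leaving out TMM moved the median interaction of all genes by -0.02.

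Without WT-SFD-1695 and KO-HFD-1520 the diet calls in KO fell to 201 and the share of diet-responsive genes with the larger change in KO was 57.8%. Without KO-SFD-1318 and KO-SFD-1319 the diet calls in KO were 99 and those of the averaged diet effect 405 (674 with all mice). Leaving out 1 mouse at a time, the interaction had 0 calls throughout, the genes at its unadjusted limit numbered 338 (without KO-SFD-1318) to 629 (without KO-SFD-1303), diet calls 92 to 136 in WT and 196 (without KO-SFD-1318) to 403 in KO, averaged diet calls 488 to 721, the share larger in KO 60.5% to 78.5%, KO against WT calls 0 to 4 on SFD and 0 to 1 on HFD, and Egfr -0.27 to -0.06.

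Of 165 named genes under 24 alternatives, the sign of the interaction changed in 12 cases. It fell below 33.3% of its value or turned in 17 of 173 genes chosen for description without WT-SFD-1695 and KO-HFD-1520, and in 14 of 173 without KO-SFD-1318 and KO-SFD-1319. Cyp2a5 became 0.187 and Slc2a5 0.00679 without KO-SFD-1318 and KO-SFD-1319, and the interaction of Egr1 became -0.000409, Fos -0.0566, Lep -0.554 and that of Ppargc1a 0.00889 without WT-SFD-1695 and KO-HFD-1520. With 1 mouse left out, Dio2 ran from -3.21 to 0.511, Egr1 from -0.24 to 2.80, Fos from -0.295 to 2.56, Erbb2 from -0.0943 to 0.00112 and the interaction of S100a9 from -0.858 to 0.0439. The cause was not tested. No paired analysis was possible because the groups share no mouse numbers, and the replicate numbers only follow the order of the samples.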

Other observations

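Nnt, the mitochondrial transhydrogenase gene that carries a deletion in C57BL/6J but not in C57BL/6N mice, was at 138 and 134 CPM in WT-HFD-1641 and WT-HFD-1642 and between 213 and 326 CPM in the other 14 kidneys, all KO kidneys included (243 to 326 CPM). The labels name C57Bl6J for all animals, and the Cre line is described as C57BL/6N. The interaction of Nnt was 0.42 ± 0.28 log2 units (unadjusted p = 0.153).

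Igkc, the immunoglobulin kappa constant region of plasma cells, ranged from 36.1 CPM in WT-SFD-1695 to 904 CPM in KO-HFD-1504, with a wide range within every group.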
